A study of Rattus norvegicus with 4 samples.

Results

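Myogenic regulators and fusion genes were followed through RNA sequencing of H9C2 cells, a clonal line from embryonic rat heart that keeps many traits of skeletal myoblasts. The 9 genes Myod1, Myog, Myf5, Myf6, Mymk, Mymx, Pax3, Pax7 and Cdh15 were taken by gene name from 33778 deposited gene rows, and each name matched 1 row. Control cells (2 libraries) were compared with cells given PAGln, the gut-derived metabolite phenylacetylglutamine, at 100 µM for 48 h (2 libraries). Both groups were unmodified H9C2 cells kept in a growth medium with serum, and no differentiation step is described in the labels. Separate cultures are not mentioned for the libraries of a group, so p-values here reflect only library-to-library spread, possibly technical.

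In skeletal muscle development the paired box factors Pax3 and Pax7 mark progenitors, and the 4 myogenic regulatory factors act after them. Myf5 and Myod1 commit cells to the myoblast fate, Myog drives terminal differentiation, and Myf6 acts mainly late. They are basic helix-loop-helix proteins that pair with E proteins and bind E-box sequences in DNA. Differentiating myoblasts then adhere through cadherins such as Cdh15, known as M-cadherin, and fuse with the help of the membrane proteins myomaker (Mymk) and myomixer (Mymx).

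Values are FPKM, that is reads scaled by gene length and library depth, as the authors deposited them. They correspond to between 13507110 and 14984712 recovered reads per library. A gene was tested where its mean over the 4 libraries reached 1 FPKM, which 12334 genes did, and 4 of the 9 members were among them (Cdh15, Myod1, Mymk and Myog). Of the myoblast markers Myod1, Myf5, Pax7, Cdh15, Des, Itga7 and Ncam1, 5 of 7 reached 1 FPKM, and Myf5 and Pax7 were listed at 0 in every library. The labels call the cells cardiac myocytes, yet only 3 of 12 cardiomyocyte markers reached 1 FPKM (Nkx2-5, Gata4 and Hand2), and the contractile genes Actn2, Myh6, Myh7 and Actc1 did not. All 6 smooth muscle markers and 4 of 8 fibroblast markers reached it, against 0 of 3 endothelial, 0 of 4 epithelial and 1 of 4 leukocyte markers. The summed level of the smooth muscle markers ran from 4116 FPKM in PAGln 2 to 5380 FPKM in PAGln 1, and that of the fibroblast markers from 3333 FPKM in PAGln 1 to 3517 FPKM in control 2. The part of other cell types in the member values was not tested.

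Cdh15 and Myod1 were abundant, Mymk was low, Myog was near the filter, and the other 5 members had 5 or fewer reads in all libraries together. None of the 4 tested members passed the test between PAGln and control cells. Of all 12334 tested genes 0 passed (0%), and 262 had an unadjusted limma p under 0.05 (2.12%), none of them a member. These are bulk samples, in which fewer expressing cells and less RNA per cell cannot be told apart. For Cdh15, Myod1, Mymk and Myog alike the libraries of the groups overlapped. This was the common case, as the groups did not overlap for only 23.1% of all tested genes.

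**Figure D1:**
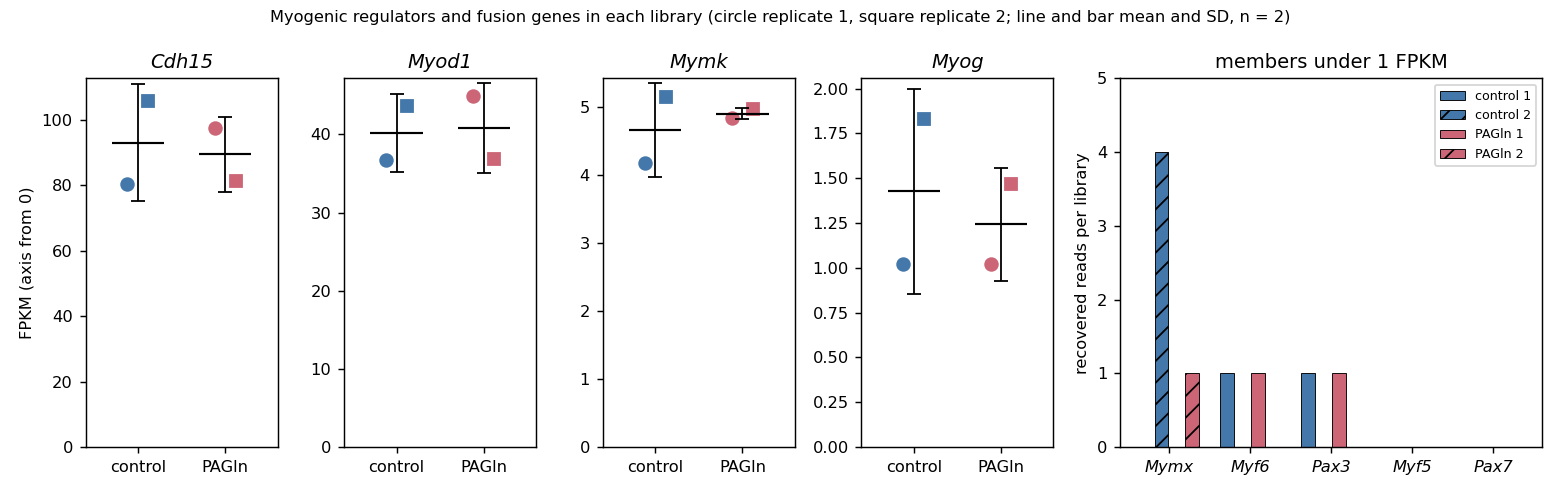
FPKM of the 4 tested members in each library (left panels, axes from 0, blue control, red PAGln, circle replicate 1, square replicate 2, line and bar mean and SD, n = 2) and recovered reads of the 5 other members in each library (right panel, bars). The groups overlap for each tested member, and the largest bar is the 4 reads of Mymx in control 2.

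Myod1, the regulator that can turn fibroblasts into myoblasts, had 36.7 and 43.7 FPKM in controls 1 and 2 and 44.9 and 36.8 FPKM in PAGln 1 and 2. Control 2 and PAGln 1 were thus the high libraries and control 1 and PAGln 2 the low ones, so that the difference lay inside each group rather than between groups. Its row (ENSRNOG00000011306, chromosome 1, 102396538 to 102399248, plus strand, in the coordinates of the deposited tables) has a length of 1948 bases. The group means were 40.2 ± 4.96 FPKM in control and 40.9 ± 5.74 FPKM with PAGln (SD, n = 2 each). The fitted log2 difference, PAGln minus control, was 0.022 (SE 0.15, limma adjusted p = 1.00), with a 95% confidence interval from -0.36 to 0.40, or a level with PAGln between 0.779 and 1.32 times that of control.

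Counting error did not cover the spread of Myod1 between libraries of the same group. Its reads numbered 1064 in control 1 and 1284 in control 2, and 1186 in PAGln 1 and 979 in PAGln 2. Control 2 stood 1.19 times above control 1 (95% Clopper-Pearson interval 1.10 to 1.29, exact binomial p = 2.31e-05). PAGln 2 stood at 0.819 of PAGln 1 (interval 0.752 to 0.892, exact binomial p = 3.77e-06). Summed over each group the ratio of PAGln to control was 1.02 (interval 0.958 to 1.08). These intervals cover counting error only.

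Myog, or myogenin, which follows Myod1 when myoblasts leave the cell cycle and differentiate, had 1.02 and 1.83 FPKM in controls 1 and 2 and 1.02 and 1.47 FPKM in PAGln 1 and 2. Both replicates numbered 2 were the higher ones, and the PAGln values fell almost wholly inside the control range. The recovered reads behind these values were 22, 40, 20 and 29. The fitted log2 difference was -0.0999 (SE 0.28, limma adjusted p = 1.00), with a 95% interval from -0.81 to 0.61. The interval reaches from 0.571 to 1.53 times the control level, the widest of the 4 tested members. In summed reads Myog had 62 in control and 49 with PAGln, a ratio of 0.871 (Clopper-Pearson interval 0.586 to 1.29). Control 2 over control 1 was 1.80 (interval 1.04 to 3.17, exact binomial p = 0.0302), a spread beyond counting error. PAGln 2 over PAGln 1 was 1.44 (interval 0.787 to 2.68). The row (ENSRNOG00000030743, chromosome 13, 51126459 to 51129048, plus strand) has a length of 1448 bases.

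Within a library Myod1 exceeded Myog by 35.9 and 23.9 times in controls 1 and 2 and 44.1 and 25.1 times in PAGln 1 and 2. The commitment factor thus stood far above the differentiation factor in each of the 4 libraries. Over the libraries Myog ranged from 1.02 to 1.83 FPKM and Myod1 from 36.7 to 44.9 FPKM.

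Myf5 and Myf6, the other regulators of the family, lie next to each other in vertebrate genomes. In the deposited tables both are on the minus strand of chromosome 7 with 6881 bases between them (Myf5 ENSRNOG00000004768, 49729533 to 49732764; Myf6 ENSRNOG00000004878, 49739646 to 49741540). Myf5, which marks the earliest myoblasts, was listed at 0 in all 4 libraries, where 1 read would be worth from 0.0323 to 0.0359 FPKM. Myf6, the late regulator also called MRF4, had 1 read in control 1 (0.0509 FPKM), 1 read in PAGln 1 (0.0560 FPKM) and was listed at 0 in control 2 and PAGln 2. Neither could be compared between groups at this depth. A row listed at 0 may not mean an absent transcript: among 25 genes that most cells express, Cd81, a tetraspanin, was also listed at 0 in 3 libraries and had 1 read in control 2, while the other 24 averaged 1 FPKM or more. Hprt1, a purine salvage enzyme with annotated pseudogenes and 1 of those 24, nevertheless had 25.4 and 0.504 FPKM in controls 1 and 2 and 24.8 and 0.780 FPKM in PAGln 1 and 2, low in both replicates numbered 2.

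Pax7, the factor of muscle stem cells (ENSRNOG00000018739, chromosome 5, 158214616 to 158313426, minus strand), was listed at 0 in all 4 libraries. Pax3, which acts in embryonic muscle progenitors and neural crest (ENSRNOG00000013670, chromosome 9, 84005183 to 84101172, minus strand), had 1 read in control 1 and 1 in PAGln 1, and was listed at 0 in control 2 and PAGln 2. Its highest value was 0.0336 FPKM, in PAGln 1. Reads of both progenitor factors were thus at or near 0 in either group.

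Mymk, the gene of myomaker, had 4.17 and 5.14 FPKM in controls 1 and 2 and 4.84 and 4.96 FPKM in PAGln 1 and 2. Both PAGln values lay inside the control range, and the lowest value was that of control 1. The group means were 4.65 ± 0.690 FPKM in control and 4.90 ± 0.0838 FPKM with PAGln (SD, n = 2 each). The fitted log2 difference was 0.066 (SE 0.16, limma adjusted p = 1.00), with a 95% interval from -0.35 to 0.48, or from 0.787 to 1.39 times the control level. With 88, 110, 93 and 96 reads, control 2 over control 1 was 1.23 (Clopper-Pearson interval 0.924 to 1.65) and PAGln 2 over PAGln 1 was 1.02 (interval 0.762 to 1.38), so the spread of Mymk inside a group was within counting error. Its row is ENSRNOG00000006142, on chromosome 3 from 5608243 to 5617225 on the minus strand, with a length of 1418 bases.

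Mymx, the gene of the small protein myomixer that works together with myomaker, had 4 reads in control 2 and 1 in PAGln 2, and was listed at 0 in control 1 and PAGln 1. In FPKM these were 0.982 and 0.271, and both replicates numbered 2 held all of its reads. Its row (ENSRNOG00000042497, chromosome 9, 17782395 to 17782664, plus strand) has a length of only 270 bases, so 1 read was worth between 0.246 and 0.273 FPKM. The row spans the same 270 bases in the genome, so it is 1 block without introns. Whether it covers the whole transcript was not tested, and reads outside it would not be counted in it. The ratio of PAGln to control reads was 0.275, with a Clopper-Pearson interval from 0.00559 to 2.78. A difference between groups was not detectable at this depth. Mymk exceeded Myog by between 2.81 times in control 2 and 4.75 times in PAGln 1, and Mymx stayed below Mymk in every library.

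Cdh15, the adhesion molecule of myoblasts and satellite cells, was the most abundant member. It had 80.4 and 105.7 FPKM in controls 1 and 2 and 97.5 and 81.4 FPKM in PAGln 1 and 2. As for Myod1, control 2 and PAGln 1 were high and control 1 and PAGln 2 were low, and both PAGln values lay inside the control range. The group means were 93.0 ± 17.9 FPKM in control and 89.4 ± 11.4 FPKM with PAGln (SD, n = 2 each). The fitted log2 difference was -0.049 (SE 0.17, limma adjusted p = 1.00), with a 95% interval from -0.49 to 0.39, or from 0.713 to 1.31 times the control level. The row (ENSRNOG00000027954, chromosome 19, 55669626 to 55689992, plus strand) has a length of 2763 bases.

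Cdh15 had the most reads and so the smallest counting error of the members. Its reads numbered 3308 and 4404 in controls 1 and 2 and 3652 and 3070 in PAGln 1 and 2. Control 2 over control 1 was 1.31 (Clopper-Pearson interval 1.26 to 1.38, exact binomial p = 8.31e-33), and PAGln 2 over PAGln 1 was 0.834 (interval 0.795 to 0.876, exact binomial p = 1.28e-13). The ratio of summed reads of PAGln to control was 0.960 (interval 0.929 to 0.992, exact binomial p = 0.0153), a departure smaller than either difference between replicates. That p takes no account of the spread between libraries.

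Cdh15 and Myod1 kept a nearly constant ratio. Cdh15 exceeded Myod1 in FPKM by 2.19 and 2.42 times in controls 1 and 2 and 2.17 and 2.21 times in PAGln 1 and 2. Myod1 exceeded Mymk by between 7.42 times in PAGln 2 and 9.28 times in PAGln 1. On a scale of log2(FPKM + 1) centred on the 4-library mean, the profiles of Myod1 and Cdh15 lay 0.12 apart (Euclidean distance over 4 libraries), and 718 of the tested genes lay nearer to Myod1 than Cdh15 did. Myod1 and Myog lay 0.45 apart, with 8394 tested genes nearer to Myod1.

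**Figure D2:**
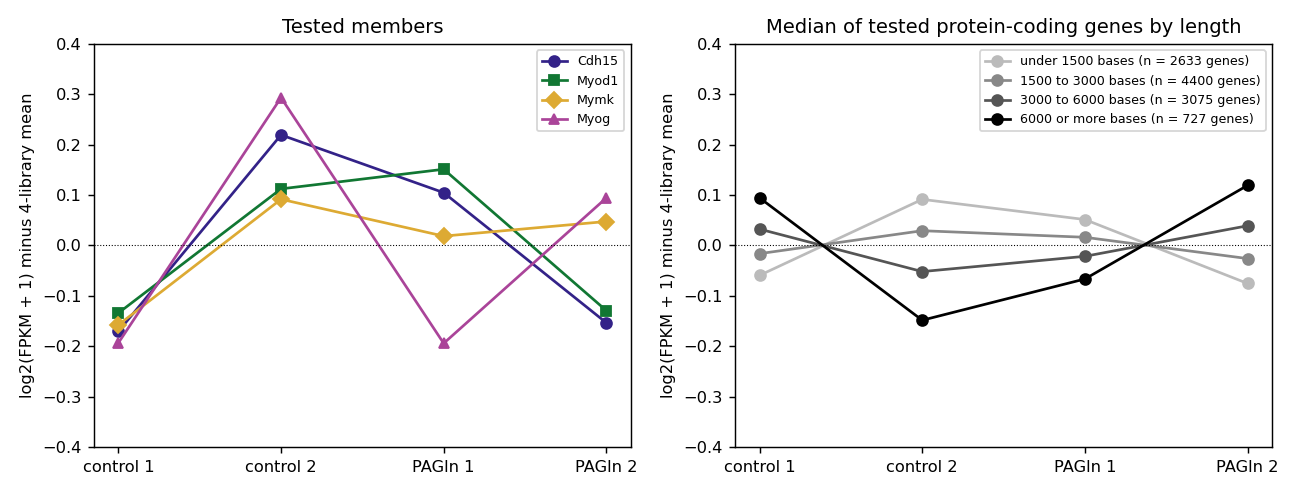
Departure of each library from the 4-library mean, in log2(FPKM + 1), for the 4 tested members (left, lines join values of 1 gene) and as the median over tested protein-coding genes in 4 length classes (right). Cdh15 and Myod1 are above 0 in control 2 and PAGln 1 and below 0 in control 1 and PAGln 2, as are the classes under 3000 bases.

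The libraries also differed by gene length in the same direction. Protein-coding genes shorter than 1500 bases (2633 tested) had median departures of -0.059 and 0.092 in controls 1 and 2 and 0.051 and -0.075 in PAGln 1 and 2. For genes of 6000 bases or more (727 tested) these were 0.094, -0.15, -0.067 and 0.12, so short genes were high and long genes low in control 2 and PAGln 1. In the class from 1500 to 3000 bases, which holds Myod1 and Cdh15, the medians were -0.016, 0.029, 0.016 and -0.026. Myod1 departed by -0.13, 0.11, 0.15 and -0.13 and Cdh15 by -0.17, 0.22, 0.10 and -0.15, more than the median of their class in each library. The part of this length pattern in the member values was not tested.

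In order of mean level over the 4 libraries came Cdh15 (91.2 FPKM), Myod1 (40.5 FPKM), Mymk (4.78 FPKM), Myog (1.33 FPKM), Mymx (0.313 FPKM), Myf6 (0.0267 FPKM) and Pax3 (0.0160 FPKM), with Myf5 and Pax7 at 0. From Cdh15 down to Mymx the ranges over the 4 libraries did not overlap between neighbours, although the highest Mymx value (0.982 FPKM, 4 reads) came close to the lowest Myog value (1.02 FPKM). Mymx, Myf6, Pax3, Myf5 and Pax7 did not differ beyond their spread. Among all tested genes Cdh15 had a higher mean than 92.9% and Myod1 than 82.4%, Mymk than 25.2% and Myog than 3.87%.

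**Figure D3:**
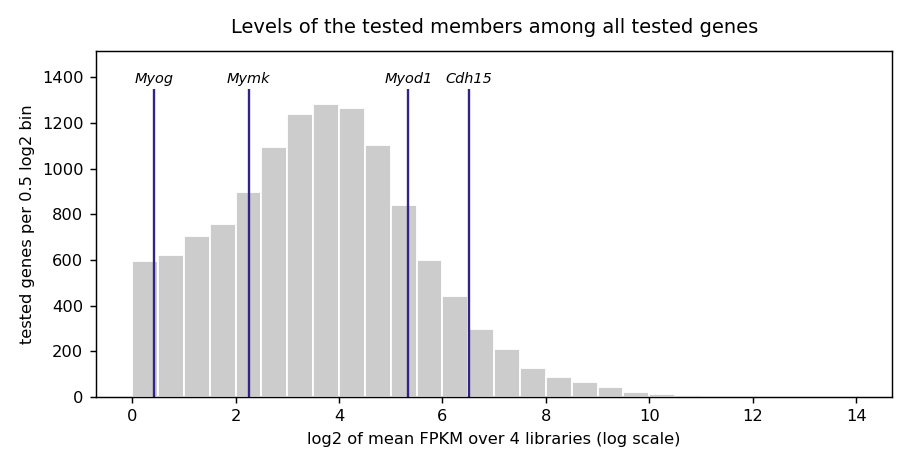
Number of tested genes by mean level over the 4 libraries (grey bars, bins of 0.5 on a log2 FPKM axis), with the mean of each tested member as a vertical line. Cdh15 and Myod1 lie in the upper part of the distribution, Mymk in the lower part and Myog near the filter of 1 FPKM.

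Regulatory factors of the family bind E-boxes, with the letters CANNTG, and sequences around the start of 7 of the 9 members were matched by symbol in RefSeq (build GRCr8). Each window holds 250 bases before and 50 after the annotated start, and the motif reads the same on both strands. Of 33469 such windows over all genes 72.1% held at least 1 E-box, 16.6% held 3 or more, and 15.1% held the form CAGCTG, which is contained in CANNTG. The windows of Cdh15, the most abundant member, and of Myog and Mymx, the differentiation and fusion genes with few reads, are shown with every E-box in capitals.
Myog (chr13:48297226-48297525, plus strand): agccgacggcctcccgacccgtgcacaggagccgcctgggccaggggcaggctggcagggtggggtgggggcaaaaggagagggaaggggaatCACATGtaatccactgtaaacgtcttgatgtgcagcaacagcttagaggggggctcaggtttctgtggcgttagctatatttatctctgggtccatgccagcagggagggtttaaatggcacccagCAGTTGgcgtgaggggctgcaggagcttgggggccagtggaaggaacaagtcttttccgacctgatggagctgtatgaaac
Mymx (chr9:22894274-22894573, plus strand): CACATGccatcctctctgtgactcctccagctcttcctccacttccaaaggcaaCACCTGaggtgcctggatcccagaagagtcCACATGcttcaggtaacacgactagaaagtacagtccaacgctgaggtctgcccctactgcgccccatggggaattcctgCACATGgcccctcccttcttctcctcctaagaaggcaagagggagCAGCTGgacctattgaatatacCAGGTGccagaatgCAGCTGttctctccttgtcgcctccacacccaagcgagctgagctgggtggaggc
Cdh15 (chr19:67814407-67814706, plus strand): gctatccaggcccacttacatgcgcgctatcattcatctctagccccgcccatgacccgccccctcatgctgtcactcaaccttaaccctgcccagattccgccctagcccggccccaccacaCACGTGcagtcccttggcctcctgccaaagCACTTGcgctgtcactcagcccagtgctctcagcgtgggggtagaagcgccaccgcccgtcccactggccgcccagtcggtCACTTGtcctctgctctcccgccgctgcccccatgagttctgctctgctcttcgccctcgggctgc

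The Myog window held 2 E-boxes, whose first bases lie at positions -157 and -31 from the start. The Cdh15 window held 3, at -127, -97 and -16, none of them of the form CAGCTG. Mymx has 3 annotated starts, and the window of the most upstream one, shown here, held 7 E-boxes, 2 of them CAGCTG at -41 and -5. The windows of its other starts held 5 each, again with 2 CAGCTG. Myf6 and Pax3 had 1 E-box each, and Myf5 and Pax7 had 0. Among the 7 members with a window, Mymx alone broke the order of levels, with 7 E-boxes at its most upstream start (0.313 FPKM). Cdh15 had 3 (91.2 FPKM) and Myog 2 (1.33 FPKM), and the remaining members with a window had fewer E-boxes and lower levels. A relation of E-box number to level was not tested. Myod1 and Mymk had no matched window, so their place in this order is not known. A match to these letters is a description, not a site of binding.

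Other genes of the pathway were taken in 6 lists of 147 entries, of which 140 matched by name, 1 through RefSeq and 6 did not match. Of the 89 distinct tested genes 0 passed the limma test, and 1 had an unadjusted p under 0.05. Over all tested genes 50.6% had a log2 fold change above 0 and 49.4% below it, with a median of 0.0021.

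**Figure D4:**
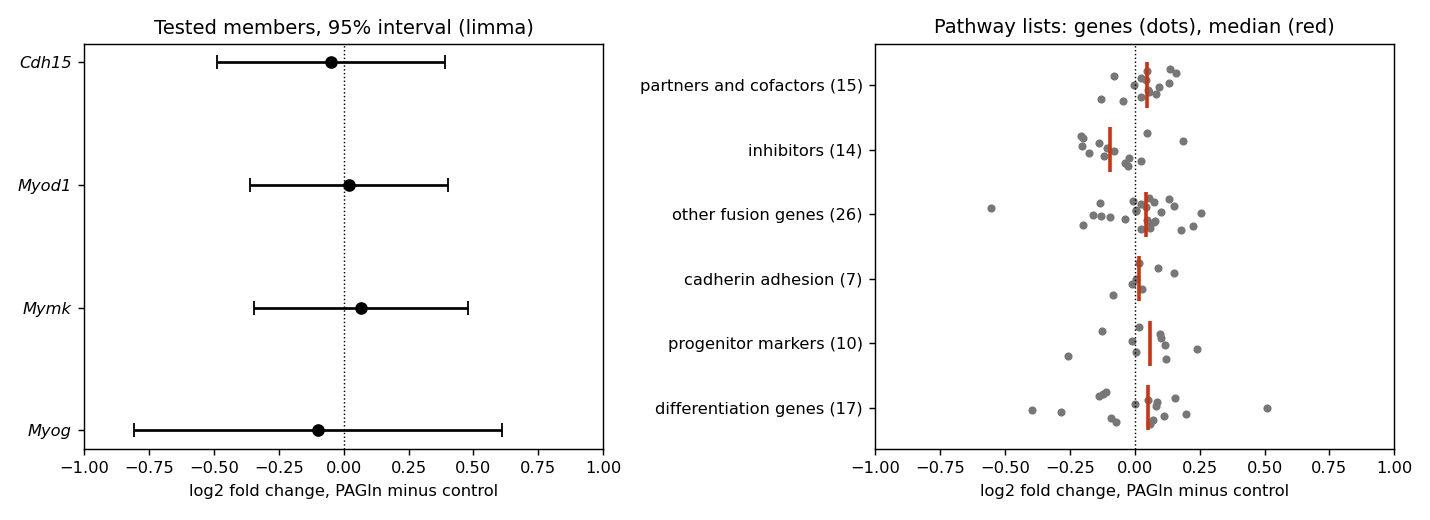
Log2 fold change of PAGln against control for the 4 tested members with 95% confidence intervals from limma (left) and for tested genes of the 6 pathway lists (right, dots genes, red lines list medians, number of tested genes in brackets). All 4 intervals include 0, and the list medians lie between -0.094 and 0.057.

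Partners and cofactors of the regulators, such as E proteins and MEF2 factors, had 15 of 20 matched members tested, with 11 higher and 4 lower in PAGln libraries, 0 called and a median log2 fold change of 0.048, which was -0.016 without control 2. The most abundant were Smarcd3, the chromatin remodelling subunit that works with Myod1, and Tcf3, the E protein that pairs with it. Smarcd3 had 87.2 and 109.6 FPKM in controls 1 and 2 and 105.3 and 93.9 FPKM in PAGln 1 and 2. Tcf3 had 44.2, 54.6, 53.6 and 48.2 FPKM in the same order. For both genes control 2 and PAGln 1 were again the higher libraries. The smallest p-values of the list belonged to the E proteins Tcf12, with 21.3, 16.7, 18.1 and 24.7 FPKM, and Tcf4, with 7.66, 6.30, 6.91 and 8.67 FPKM, and these were lower in control 2 and PAGln 1.

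Inhibitors of the regulators, such as Id proteins, which sequester E proteins, had 14 of 21 matched members tested, with 3 higher and 11 lower, 0 called and a median log2 fold change of -0.094. Its most abundant genes were Ccnd1, cyclin D1, which holds back Myod1 activity in cycling cells, at 353, 345, 358 and 323 FPKM in control 1, control 2, PAGln 1 and PAGln 2, and Id3 at 83.9, 121, 108 and 70.7 FPKM. The groups overlapped for both. Twist1, a repressor of Myod1, had 21.8 and 23.4 FPKM in control and 20.9 and 18.0 FPKM with PAGln (log2 fold change -0.21, SE 0.12, limma adjusted p = 1.00). Hes1, a Notch target, had 11.6 and 12.4 FPKM in control and 10.4 and 10.6 FPKM with PAGln (log2 fold change -0.18, SE 0.12, limma adjusted p = 1.00). For Twist1 and Hes1, and for Snai1 and Hdac5 of the same list, both PAGln libraries lay below both control libraries, without passing the test, and the groups did not overlap for 23.1% of all tested genes. Groups without overlap were not particular to this list. Among the genes named by rule from other lists, Cav3 was lower in this way. Anxa1, Ctnnd1, Cav1, Klhl41 and Mylpf were higher in both PAGln libraries than in both controls. The median of this list was -0.012 without PAGln 2 and -0.14 without PAGln 1.

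Other genes known from myoblast fusion had 26 of 39 matched members tested, with 18 higher and 8 lower, 0 called and a median log2 fold change of 0.045, which was -0.079 without control 2 and -0.024 without PAGln 2. Itgb1, the beta 1 integrin, had 832, 781, 905 and 827 FPKM, and Anxa1, an annexin of membrane repair, had 733, 731, 746 and 743 FPKM. The smallest p-values belonged to Cav3, muscle caveolin, with 49.3 and 54.1 FPKM in control and 48.5 and 41.6 FPKM with PAGln, and to Myh9, a non-muscle myosin, with 3.79 and 4.85 FPKM in control and 3.91 and 1.65 FPKM with PAGln (limma adjusted p = 1.00 for each). For Myh9 the low value was that of PAGln 2 alone.

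Genes around cadherin adhesion had 7 of 11 matched members tested, with 5 higher and 2 lower, 0 called and a median log2 fold change of 0.015, which was -0.0019 without control 2. Ctnnb1, beta-catenin, which binds the tail of Cdh15, had 123, 121, 122 and 122 FPKM, and Vcl, vinculin, had 154, 138, 149 and 145 FPKM. Ctnnd1, p120 catenin, had 53.3 and 46.9 FPKM in control and 54.6 and 56.5 FPKM with PAGln, and Jup, plakoglobin, had 70.6 and 78.5 against 80.7 and 77.9 FPKM. Of the other cadherins listed, Cdh13 and Cdh11 were tested. Cdh13 had 93.8, 96.1, 98.3 and 95.4 FPKM, a level like that of Cdh15, and Cdh11 had a mean of 11.1 FPKM. Cdh2, the N-cadherin of muscle precursors, had at most 0.397 FPKM, in control 2.

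Markers of muscle progenitors had 10 of 17 matched members tested, with 7 higher and 3 lower, 0 called and a median log2 fold change of 0.057, which was -0.026 without PAGln 2 and -0.0045 without control 2. Itga7, the laminin receptor of myoblasts, had 173, 202, 209 and 168 FPKM, high in control 2 and PAGln 1 like Cdh15 and Myod1. Cav1, caveolin 1, had 107, 102, 117 and 110 FPKM. Megf10, a receptor of satellite cells, had 6.42 and 5.01 FPKM in control and 6.33 and 7.46 FPKM with PAGln, and Des, desmin, had 4.81 and 5.70 against 4.88 and 3.63 FPKM. The groups overlapped for Megf10 and for Des.

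Differentiation genes, many of them direct targets of the regulators, had 17 of 33 matched members tested, with 10 higher and 7 lower, 0 called and a median log2 fold change of 0.052, which was -0.089 without PAGln 1 and -0.036 without control 1. Casq2, cardiac calsequestrin, had 236, 230, 268 and 219 FPKM, and Klhl41, a sarcomere assembly protein, had 118, 121, 130 and 129 FPKM. Mylpf, a fast skeletal myosin light chain, was the 1 gene of the 6 lists with an unadjusted p under 0.05, with 2.48 and 2.99 FPKM in control and 4.84 and 3.81 FPKM with PAGln. On the log2 scale this was a difference of 0.51 (SE 0.19, limma adjusted p = 1.00). Myl4, an atrial and embryonic myosin light chain, had 8.19 and 9.09 FPKM in control and 8.26 and 4.79 FPKM with PAGln, the low value being that of PAGln 2 alone.

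Among all tested genes with a curated name, those with the profile over the 4 libraries nearest to Myod1 were Sppl2b (Euclidean distance 0.0048), Gpatch11 (0.0050) and Tmem199 (0.014). Nearest to Cdh15 were Scly (0.0097), Smad7 (0.013) and Grb2 (0.019), and nearest to Mymk were Hmgb2 (0.014), Cir1 (0.017) and Lsm8 (0.020). Myog had no gene as close, its nearest being Zfp524 (0.075), Smad6 (0.096) and Lhx2 (0.097). With only 4 libraries many profiles resemble each other: 405 tested genes lay within 0.1 of Myod1, 275 of Cdh15, 252 of Mymk and 9 of Myog.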

How the data were processed

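RNA from 4 libraries of rat H9C2 cells was taken up in Trizol and sequenced, per the labels' protocols, and groups come from the treatment label. The deposited values are FPKM per gene, made by the authors. Bowtie 0.12.2 and hg38, a human build, appear in the submitters' processing notes, while the rows carry rat Ensembl identifiers. The counting tool, strand use, treatment of reads matching several loci and the build of the coordinates are not given in these sources. The labels state differing numbers of repeats, and 2 libraries per group were analysed.

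FPKM times the deposited gene length was a whole multiple of 1 step per library for 100% of non-zero values, within 0.01 of a read. Reads were recovered on the assumption that this step is 1 read. Totals were 14934592 and 14984712 in controls 1 and 2 and 13507110 and 13585802 in PAGln 1 and 2. FPKM are not counts, so log2(FPKM + 1) was modelled with limma 3.58.1 (R 4.3.3), with a variance trend and no covariate, two-sided. This scale understates changes of low genes. Genes entered at a mean of at least 1 FPKM, with Benjamini-Hochberg adjustment over all of them and a threshold of 0.05. The fit was checked on simulated data. Recovered reads were compared by two-sided exact binomial tests (scipy 1.17.1), with 95% Clopper-Pearson intervals. An exact permutation test of 2 against 2 libraries cannot give a p below 0.333 and was not used.

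Members and lists were chosen with earlier results of these data known. All members are named. From each list the 2 most abundant tested genes and the 2 with the smallest p are named, and for each tested member the 3 nearest profiles, leaving out automatic symbols. Cdh2, Cdh11, Cdh13, Cd81, Hprt1, Snai1, Hdac5, the cardiac markers and the endplate and contractile genes described last were chosen after their values were seen. Alternatives were another pseudocount (0.1), 2 looser filters, 2 other scalings, voom on recovered reads, replicate blocks and leaving out each library.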

Additional observations from a re-analysis of the deposited data

How the results depend on the processing

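No member passed under any of the 12 alternatives, with limma adjusted p-values of the 4 tested members from 0.855 to 1.00. In the 8 alternatives that kept all libraries the members kept their direction, with log2 fold changes from 0.018 to 0.036 for Myod1, 0.050 to 0.080 for Mymk, -0.052 to -0.031 for Cdh15 and -0.16 to -0.0999 for Myog. The looser filters and the replicate blocks cannot change the estimate of a member in this balanced layout. Only the other pseudocount, the other scalings and voom could have turned a direction here. Leaving out 1 library turned each of the 4 tested members, and the ranges were -0.12 to 0.16 for Myod1, -0.059 to 0.19 for Mymk, -0.24 to 0.15 for Cdh15 and -0.34 to 0.14 for Myog. Myod1 turned to -0.10 without control 1 and -0.12 without PAGln 1, and Mymk to -0.059 without control 1. Cdh15 turned to 0.15 without control 2 and 0.080 without PAGln 2, and Myog to 0.14 without control 2 and 0.044 without PAGln 1. A lone library was taken to vary as much as the libraries of the other group. The number of genes called over the whole table, 0 in the 4-library fit, was 1 to 13 when a library was left out. The list medians then ranged from -0.0019 to 0.036 for cadherin adhesion, -0.016 to 0.089 for cofactors, -0.079 to 0.14 for other fusion genes, -0.14 to -0.012 for inhibitors, -0.026 to 0.089 for progenitor markers and -0.089 to 0.091 for differentiation genes. The cadherin median was 0.034 with quantile normalization and the inhibitor median -0.036 with no filter on low values, where more genes entered; for the former the cause was not tested.

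Control and PAGln libraries share replicate numbers, but the labels do not say that a number marks a shared culture or day. The differences between replicates 1 and 2 in the 2 groups correlated at -0.28 across 12334 genes. Hprt1, described above, went the other way, being low in both replicates numbered 2. A fit with the replicate number as a block called 7 genes and no member (adjusted p = 1.00 for each), and a block with crossed numbers, chosen after seeing the data, called 0. Depth limits Mymx, Myf6 and Pax3, with 5, 2 and 2 reads over all libraries.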

Other observations

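Genes of the neuromuscular endplate, a late product of the myogenic programme, differed widely in level between their rows. Rapsn, which clusters acetylcholine receptors, had 103 and 140 FPKM in controls 1 and 2 and 128 and 113 FPKM in PAGln 1 and 2. Musk, the receptor kinase of the endplate, had 46.8, 37.8, 47.4 and 49.4 FPKM, and the receptor subunit gene Chrnb1 had 20.5, 20.3, 22.1 and 20.9 FPKM. The subunit genes Chrna1 and Chrnd stayed at or below 0.108 and 0.217 FPKM in every library. In FPKM Rapsn lay above every member in each library, and Musk was at levels like those of Myod1. Chrnb1 lay between Myod1 and Mymk, and Chrna1 and Chrnd lay under Myog. Dok7, also a gene of the endplate, had 2.99, 2.87, 2.31 and 3.11 FPKM, between Mymk and Myog. None of these tested genes passed the limma test.

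Contractile genes of skeletal muscle also differed widely in level between their rows. Tnnt3 had 9.58, 8.40, 9.35 and 7.12 FPKM in control 1, control 2, PAGln 1 and PAGln 2, and Tnnc2 had 8.12, 10.3, 11.3 and 5.94 FPKM. Tnni2, the inhibitory subunit of the same complex, had 0.114 FPKM in control 1 and was listed at 0 in the other libraries, and Myl1 and Myh8 were listed at 0 in all 4. The row named for the myosin heavy chain gene Myh1 had 11.1 and 9.12 FPKM in controls 1 and 2 and 9.38 and 6.92 FPKM in PAGln 1 and 2. Its length is 18143 bases, against 6035 for the row of the heavy chain gene Myh3. Whether it also holds reads of other heavy chain genes was not tested. Myh2 and Myh4 had no matching row.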
